A study of Mus musculus with 2 samples.

Results

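The miRNA genes Mir335, Mir296, Mir298, Mir483 and Mir675 lie in or near imprinted host genes, and they were taken by name from the 1973 annotated miRNA genes measured in the facial prominences of mouse embryos. Mir335 lies in Mest, Mir483 in Igf2, Mir675 in H19, and Mir296 with Mir298 in the antisense transcript Nespas of the Gnas locus. All 5 were found by their Ensembl identifiers. The facial prominences form the upper and lower face, the palate and the nose. The data came from 2 short-RNA libraries of this tissue at embryonic day 13.5, from pooled male and female embryos of the strain B6NCrl, with RNA below 30 bases. The labels name the libraries biological replicates 1 and 2 of a single group without treatment, with no number of embryos, so p-values compare these libraries and not conditions.

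At an imprinted gene, one parental chromosome carries a methylation mark at a control region and only one parental copy is transcribed. Mest, Igf2 and Nespas are known to be expressed from the paternal copy and H19 from the maternal copy. Igf2, a fetal growth factor gene, and H19, a long non-coding RNA gene, share one control region and are expressed from opposite parental chromosomes. A miRNA is cut from a hairpin in such a transcript, and its seed, bases 2 to 8 of the mature strand, guides it to target mRNAs. B6NCrl is an inbred strain and the counts do not separate parental copies, so the allele given for each gene is background knowledge and not a measurement.

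The hairpins show which part of each locus was counted, since 1 count per gene covers both arms. They are given with the annotated mature arms in capitals (RefSeq, build GRCm38.p6, 5′ to 3′). All 5 had the same start, end and strand as the GENCODE gene.
Mir335: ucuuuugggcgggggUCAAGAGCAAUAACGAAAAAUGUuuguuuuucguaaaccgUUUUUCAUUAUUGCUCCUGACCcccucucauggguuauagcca
Mir296: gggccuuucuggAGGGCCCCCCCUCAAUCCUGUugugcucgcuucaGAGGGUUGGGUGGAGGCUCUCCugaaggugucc
Mir298: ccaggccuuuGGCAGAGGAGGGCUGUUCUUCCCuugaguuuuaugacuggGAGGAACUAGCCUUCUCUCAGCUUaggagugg
Mir483: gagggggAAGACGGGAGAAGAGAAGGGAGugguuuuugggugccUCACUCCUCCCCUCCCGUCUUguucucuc
Mir675: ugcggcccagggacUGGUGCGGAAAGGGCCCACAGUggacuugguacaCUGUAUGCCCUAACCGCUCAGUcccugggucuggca

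The mature sequences below carry the seed in capitals, to show what each gene adds to the pool of target-guiding sequences.
miR-335-5p: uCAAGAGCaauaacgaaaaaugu
miR-335-3p: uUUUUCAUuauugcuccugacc
miR-296-5p: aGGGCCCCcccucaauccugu
miR-296-3p: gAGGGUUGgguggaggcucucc
miR-298-5p: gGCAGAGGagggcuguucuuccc
miR-298-3p: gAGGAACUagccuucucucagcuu
miR-483-5p: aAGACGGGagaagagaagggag
miR-483-3p: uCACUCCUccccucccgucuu
miR-675-5p: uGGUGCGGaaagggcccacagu
miR-675-3p: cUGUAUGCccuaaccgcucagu

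No seed of bases 2 to 8 was shared. The 10 mature sequences had 10 distinct seeds, and 0 of the 1728 other mature sequences in the RefSeq table had any of them, in a table that is not complete. Over the shorter stretch of bases 2 to 7, 4 of the 10 matched a mature sequence of another gene, namely miR-335-5p, miR-335-3p, miR-296-5p and miR-483-3p, with 1 match each. None of the 10 sequences lay in another of the 1005 hairpins of the table or in a GENCODE transcript of a gene other than its host. This bears on the counts, because multiply placed reads stayed without a gene. The remaining genome was not searched.

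Base composition differed widely among the 5. Mir335 was poor in G and C, with 30.4% in miR-335-5p and 36.4% in miR-335-3p, against a median of 52.2% over the 1738 mature sequences. Only 1.55% of mature sequences had less than miR-335-5p. Mir296 stood at the other end, with 66.7% in miR-296-5p, which holds a run of 7 C, and 68.2% in miR-296-3p. The arms of Mir483 were split by base type, with 95.5% purines in miR-483-5p and 9.52% in miR-483-3p. The folding energy of the hairpins was -0.67 kcal/mol per base for Mir675, -0.55 for Mir296, -0.52 for Mir298, -0.46 for Mir483 and -0.45 for Mir335. The median of all 1005 hairpins was -0.41, and 97.7% of hairpins were less stable per base than that of Mir675.

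The positions set the members apart by their relation to the host. Mir335 occupied bases 30741299 to 30741396 of chromosome 6 (GRCm38, plus strand), 17.8 kb from the start of Mest. Of the 11 annotated Mest transcripts 7 spanned it, and 0 had it in an exon. Mir483 occupied bases 142654924 to 142654996 of chromosome 7 (minus strand), 11.8 kb from the start of Igf2, inside 7 of 9 transcripts and in an exon of 0. A longer annotated gene that overlaps Igf2, Gm49394, also spanned it. Mir675 lay on the same strand from 142577064 to 142577147, 77.8 kb from Mir483, and 0.996 kb from the start of H19. It was spanned by 4 of 7 H19 transcripts and was exonic in 3 of them, and those 3 transcripts also held both of its mature sequences.

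Mir296 occupied bases 174267047 to 174267125 of chromosome 2 (minus strand) and Mir298 bases 174267504 to 174267585, with 378 bases between them. GENCODE release M21 ends Nespas at 174281237, so Mir298 lay 13.7 kb and Mir296 14.1 kb beyond that end, on the same strand. In that release both fell between genes, and their assignment to Nespas rests on background knowledge of a longer transcript. For Mir296, Mir298, Mir483 and Mir675, the closest miRNA gene of the files was another member. The closest to Mir335 was Mir29a on the opposite strand, 321 kb away.

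**Figure D1:**
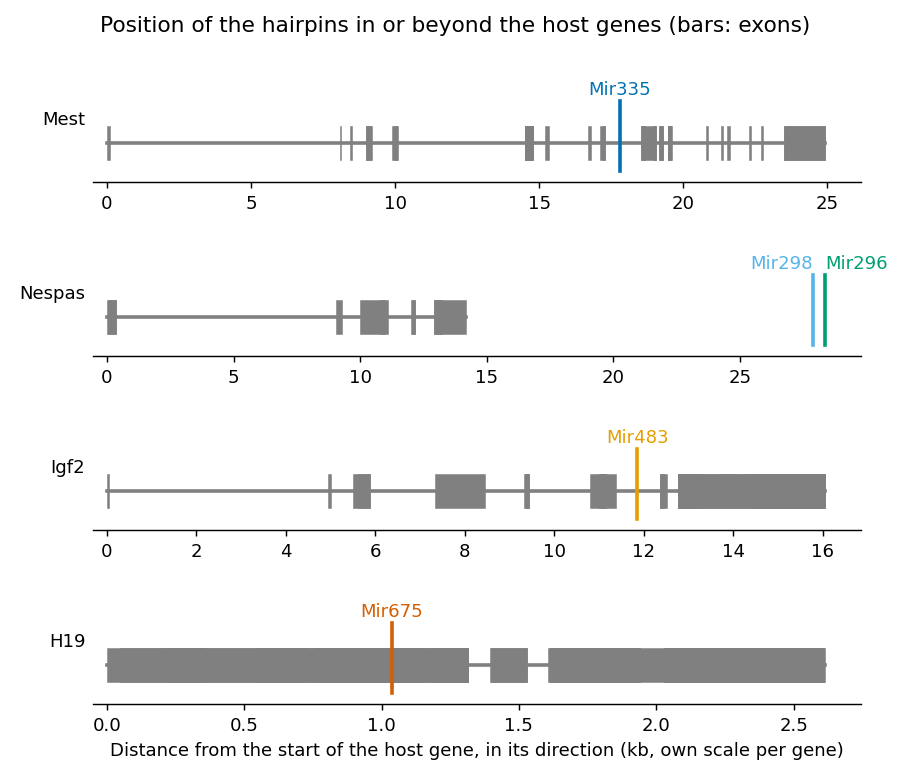
Position of the 5 hairpins (coloured lines) relative to their hosts, in kb from the host's start in its own direction, with a separate scale per gene. Grey bars are exons of any annotated transcript. Mir335 and Mir483 lie in introns, Mir675 lies in an exon of H19, and Mir298 and Mir296 lie 13.7 and 14.1 kb beyond the annotated end of Nespas.

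Depth and tissue identity were checked first. Replicate 1 held 4562135 same-strand gene counts and replicate 2 held 5771249, and levels are given in CPM, counts per 1000000 of that total. The limit that a count of 0 allows, 3 counts, came to 0.658 and 0.520 CPM, and all 5 members lay above it. Markers of mesenchyme and cartilage held 4.76% and 4.99% of counts and those of epithelium 6.35% and 6.33%. All 5 and all 7 genes of these lists had at least 10 counts in both libraries. The near-equal epithelial sums covered opposite shifts of single genes. Log2 ratios of replicate 1 over replicate 2, after the TMM scaling used below, were 0.49 for Mir203 and 0.11 for Mir205. They were -0.61 for Mir200a and Mir200b, -0.48 for Mir429, -0.42 for Mir141 and -0.13 for Mir200c. Lists for blood, striated muscle, liver and brain each held at most 0.0737%. Reads with several places were not counted, so lists with gene copies, such as Mir138-1 and Mir138-2 for brain, leave such reads out.

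Mir335 was the most abundant of the 5 by far and Mir675 the least. Their levels fell in the order Mir335, Mir296, Mir298, Mir483, Mir675, and the order was the same in both libraries. Together the 5 genes held 5.70% of all miRNA gene counts in replicate 1 and 5.23% in replicate 2. Of this sum, Mir335 alone made up 85.7 ± 1.00% (SD, n = 2). In bulk tissue, fewer cells that express a gene and less of its RNA per cell cannot be told apart.

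Mir335, known in human cells as a regulator of migration and invasion, was counted 220852 times in replicate 1 and 260967 times in replicate 2, giving 48410 and 45218 CPM. It stood at rank 5 in replicate 1 and rank 6 in replicate 2 among all 1973 genes. Reads with several places, 30.7% and 31.0% of reads, were counted for no gene. Ranks, shares and medians here and below leave them out, which lowers genes with copies relative to the members. Mirlet7i, the first of all genes by mean level, had 73749 CPM in replicate 1 and 57346 CPM in replicate 2, where it was not the highest. The share of Mir335 was 4.84% in replicate 1, with a 95% Wilson interval of 4.82 to 4.86%. In replicate 2 it was 4.52%, with an interval of 4.50 to 4.54%. Intervals of this kind cover counting error only, because amplified reads are not independent molecules. Among the 157 genes with at least 10 counts in both libraries that lie in an intron of a host on their own strand, Mir335 was the fourth most abundant. The median of those genes was 91.1 CPM.

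Mir296, known for roles in blood vessel growth and for repressing the pluripotency gene Nanog in mouse stem cells, had 23724 and 25109 counts. These were 5200 CPM in replicate 1 and 4351 CPM in replicate 2, at ranks 40 and 45. Mir298, its neighbour, had 9978 and 10364 counts, or 2187 and 1796 CPM, at ranks 68 and 78. Both were higher in replicate 1. Among 85 tested genes placed between annotated genes, with a median of 137 CPM, Mir296 was at place 11 and Mir298 at place 16.

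Mir483, a gene whose miR-483-3p acts on growth and cell survival and is often raised with IGF2 in human tumours, had 4975 and 5142 counts. These were 1090 CPM in replicate 1 and 891 CPM in replicate 2, at ranks 92 and 100. It took place 42 among the 157 intronic genes, far below Mir335. Mir675, whose release from H19 is known to limit growth of the mouse placenta, had 409 and 518 counts. These were 89.7 CPM in replicate 1 and 89.8 CPM in replicate 2, at ranks 195 and 197. Its share was 0.00897% in replicate 1, with a 95% Wilson interval of 0.00814 to 0.00988%, and 0.00898% in replicate 2, with one of 0.00824 to 0.00978%. The counting error of each library was thus wider than the SD of 0.0737 CPM between them. It took place 55 among 94 tested genes in exons, whose median was 122 CPM.

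**Figure D2:**
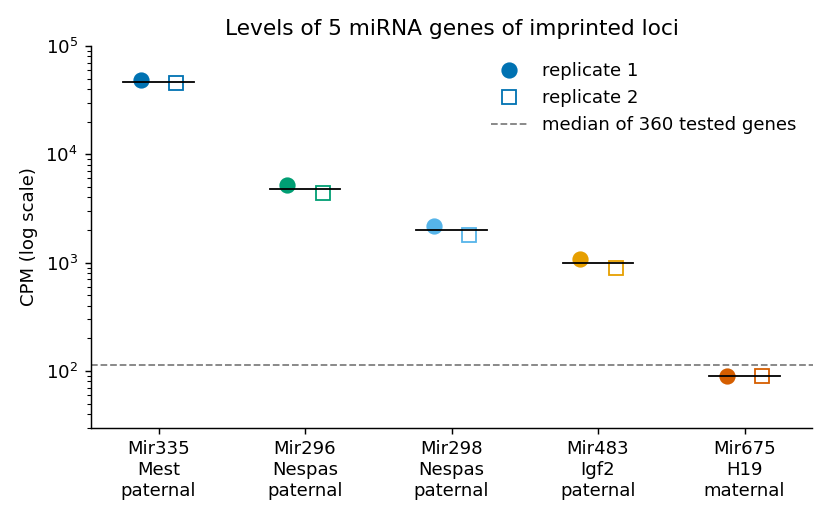
CPM on a log axis for the 5 genes, with host and expressed parental copy under each name, filled circles for replicate 1, open squares for replicate 2 and black lines for the mean of both. Mir335 sits at 48410 and 45218 CPM, and Mir675, at 89.7 and 89.8 CPM, is the gene below the dashed median of the 360 tested genes, 113 CPM.

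Against all 360 tested genes, those with at least 10 counts in both libraries, 4 of the 5 lay above the median of 113 CPM. Mir335 exceeded it 413-fold, Mir296 42.1-fold, Mir298 17.6-fold and Mir483 8.74-fold, while Mir675 stood at 0.791 of it. Of the tested genes, 98.6% lay below Mir335 and 45.0% below Mir675.

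**Figure D3:**
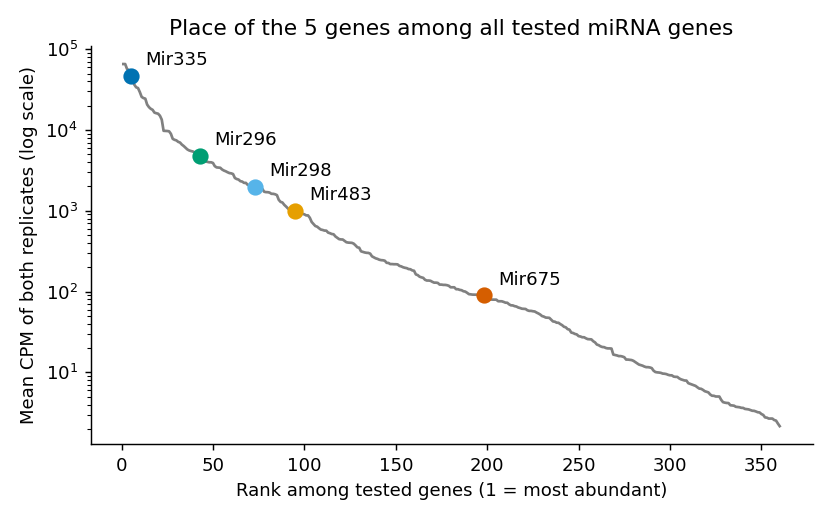
Mean CPM of both replicates on a log axis against rank for the 360 tested miRNA genes (grey line), with the 5 genes as coloured points. Mir335 is at rank 5, Mir296 at 43, Mir298 at 73, Mir483 at 95 and Mir675 at 198.

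Each gene was separated from the next in the order, with no overlap between their 2 replicate values. Mir335 exceeded Mir296 by 9.31-fold in replicate 1 (exact 95% interval 9.19 to 9.44) and 10.4-fold in replicate 2 (10.3 to 10.5). Mir296 exceeded Mir298 by 2.38-fold (2.32 to 2.43) and 2.42-fold (2.37 to 2.48), so these hairpins of one locus kept their ratio within counting error. Mir298 exceeded Mir483, on another chromosome, by 2.01-fold (1.94 to 2.08) and 2.02-fold (1.95 to 2.08). For these genes of different chromosomes too, the ratio differed between libraries by less than counting error.

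By host, Mest gave 46814 ± 2257 CPM through Mir335, Nespas 6767 ± 877 CPM through Mir296 and Mir298, Igf2 991 ± 141 CPM through Mir483 and H19 89.7 ± 0.0737 CPM through Mir675 (SD, n = 2 each). By parental copy, the 4 genes of paternally expressed hosts summed to 56888 CPM in replicate 1 and 52256 CPM in replicate 2. The gene of the maternally expressed host, Mir675, had 89.7 and 89.8 CPM. The paternal sum was 635 and 582 times the maternal level, or 608 ± 37.0 times. Most of this came from one gene, and without Mir335 the 3 other paternal genes exceeded Mir675 by 86.5 ± 11.4 times. With 1 gene on the maternal side, and with genes that are not replicates of a parental copy, this difference was given no test. The ratio holds for these genes only and depends on the loci chosen. The Dlk1-Dio3 miRNA genes, also transcribed from the maternal chromosome and described below, held 4.52% of counts, beside 5.47% for the 5 members.

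Within the shared Igf2 and H19 domain, Mir483 from the paternal copy exceeded Mir675 from the maternal copy in both libraries. The ratio was 12.2 in replicate 1 (exact 95% interval 11.0 to 13.5) and 9.93 in replicate 2 (9.07 to 10.9), or 11.0 ± 1.58 (SD, n = 2). Both genes lay far below Mir335. The host transcripts were not measured, so a level of a miRNA gene here is not a level of its host.

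Between the libraries, 4 of the 5 members were called and all 4 were higher in replicate 1, by small folds. The test was an exact binomial test of replicate 1 against replicate 2, two-sided, after TMM scaling, with Benjamini-Hochberg adjustment over 360 genes. Of all tested genes 55.3% were called, 25.0% as higher in replicate 1 and 30.3% as higher in replicate 2. The test sets differences against counting error only, which is very small at these depths.

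Mir335 was higher in replicate 1 by 1.05-fold (95% interval 1.05 to 1.06, adjusted p = 1.17e-70, exact binomial test). Mir296 was higher by 1.18-fold (1.16 to 1.20, adjusted p = 2.38e-70, exact binomial test). Mir298 was higher by 1.20-fold (1.17 to 1.23, adjusted p = 4.97e-37, exact binomial test). Mir483 was higher by 1.20-fold (1.16 to 1.25, adjusted p = 6.09e-20, exact binomial test). Mir675 did not pass, at 0.983-fold (0.861 to 1.12, adjusted p = 0.860, exact binomial test).

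These folds were close to or below the middle of the data. The median absolute difference of all tested genes was 1.18-fold, and 56.1% of tested genes differed less than Mir483, 17.8% less than Mir335. The spread between libraries was then taken from all genes of these same 2 libraries (a coefficient of variation of 18.0%). With it, edgeR's exact test called 0 of the 5, none with an unadjusted p under 0.05. It called 2 of 360 genes, Mir10a and Mir219a-2, and had 21 genes at an unadjusted p under 0.05. The tested differences themselves set this spread, so the test cannot show whether the members differ beyond it. Some marker lists of other cells moved between the libraries too. Striated muscle genes held 0.0622% of counts in replicate 1 and 0.0385% in replicate 2. In that list Mir206 had 570 and 314 CPM and Mir133b 13.2 and 11.1, while Mir208b had 39.0 and 60.6 CPM. Red blood cell genes held 0.00910% and 0.0151%, and the liver gene Mir122 0.00495% and 0.0109%. White blood cell genes (0.0494% and 0.0514%) and brain genes (0.0737% and 0.0677%) changed less in sum, but single genes shifted. Among brain genes, Mir128-1 had 136 and 90.1 CPM and Mir128-2 56.6 and 28.2, while Mir138-2 had 117 and 141. Mir137 (315 and 304 CPM) and Mir138-1 (112 and 114 CPM) changed little. Among white blood cell genes, Mir223 had 383 and 363 CPM, Mir155 103 and 139, and Mir150 8.11 and 11.6. The part of these cells in the members' differences was not tested.

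**Figure D4:**
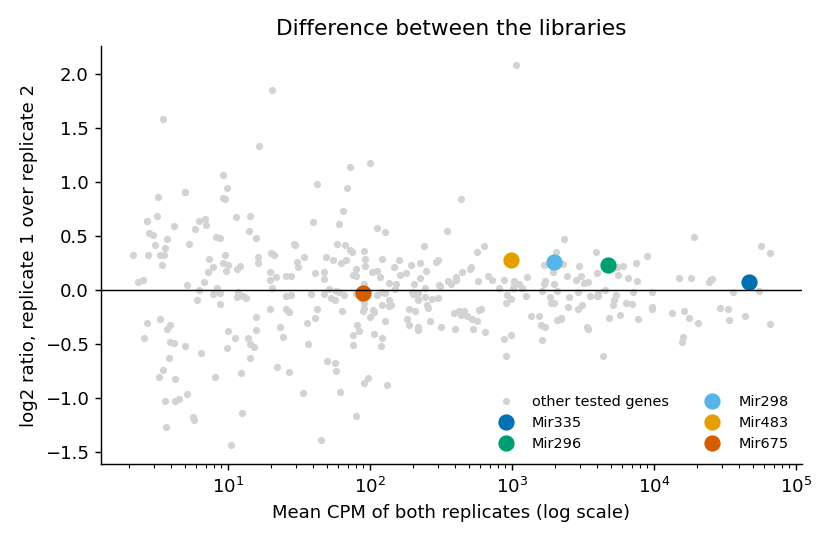
Log2 ratio of replicate 1 over replicate 2 after TMM scaling against mean CPM on a log axis, for the 5 genes (coloured) and the other tested genes (grey). Mir296, Mir298 and Mir483 lie together at 0.23, 0.26 and 0.27, Mir335 at 0.07 and Mir675 at -0.03.

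Mir296 and Mir298 were compared with other neighbouring miRNA genes, since neighbours are often cut from one transcript. Their levels differed by 1.26 on the log2 scale, against a median difference of 3.19 over 107 adjacent pairs of tested genes on one strand within 10 kb. Only 24 pairs were closer in level. Their log2 ratios between the libraries differed by 0.0271, against a median of 0.226, and 8 pairs differed less. Pairs entered with as few as 10 counts per gene, where counting error alone widens the difference of the ratios. Mir296 and Mir298 had at least 9978 counts in each library. Reads with several places were not counted, which can widen the level difference of pairs that hold a gene with copies. Pairs that share a gene are not independent, and these values are a description.

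The genes nearest to each member were found by their Euclidean distance in log2 CPM over both libraries. Mir322, an X-linked gene at 43792 ± 4597 CPM (SD, n = 2), was nearest to Mir335, at a distance of 0.262, followed by Mirlet7g in Wdr82 at 0.337. Mir27b (0.191) and Mir98 in Huwe1 (0.287) were nearest to Mir296. Mir1983 (0.0698) and Mir541 (0.0779) were nearest to Mir298, and Mir15b in Smc4 (0.161) and Mir434 (0.186) to Mir483. Mir541 and Mir434 belong to the Dlk1-Dio3 domain, which is also imprinted. Mir362 in Clcn5 (0.0555) and Mir452 in Gabre (0.0614) were nearest to Mir675, at 90.7 ± 3.11 and 88.0 ± 2.95 CPM.

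Genes of other imprinted domains were set beside the members. The Dlk1-Dio3 miRNA genes, transcribed from the maternal chromosome, had 41 tested genes among 49 of the list in the files, with a median of 273 CPM among those tested. Their leaders were Mir411 at 7135 ± 1.27 CPM, Mir487b at 6027 ± 709 CPM and Mir127 at 5585 ± 435 CPM. None of the 41 reached Mir335, 3 exceeded Mir296, 7 exceeded Mir298, 12 exceeded Mir483 and 30 exceeded Mir675. Of the 41, 29.3% exceeded 1000 CPM, beside 26.1% of all 360 tested genes. The 5 members held 5.47 ± 0.328% of counts and the Dlk1-Dio3 list 4.52 ± 0.242% (SD, n = 2 each).

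The Sfmbt2 repeat cluster, imprinted in mouse placenta with a paternally expressed host, had 107 annotated genes on the host's strand, of which 10 were tested and 78 had no count. Its leaders were Mir467d at 2299 ± 301 CPM, Mir467e at 2086 ± 12.5 CPM and Mir467c at 1975 ± 96.6 CPM. Mir335 and Mir296 exceeded all 10, 2 exceeded Mir298, 3 exceeded Mir483 and 6 exceeded Mir675. Many of these genes share sequence, and their reads with several places were not counted, so their levels leave those reads out. In the library comparison, 23 of the 41 Dlk1-Dio3 genes (19 higher in replicate 1, 4 higher in replicate 2) and 4 of the 10 Sfmbt2 genes were called, beside 55.3% of all tested genes.

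**Figure D5:**
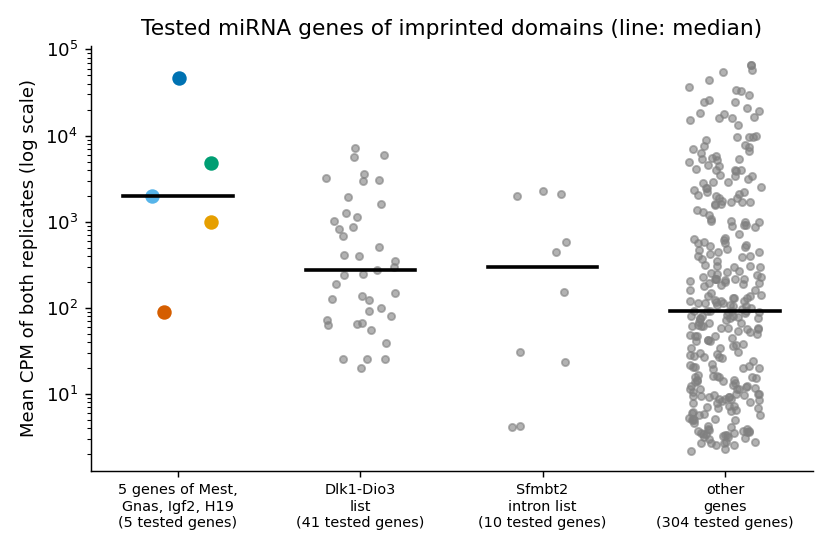
Mean CPM of both replicates on a log axis for the tested genes of each list, with the median as a black line. The 5 genes have a median of 1991 CPM, the Dlk1-Dio3 list 273 CPM, the Sfmbt2 intron list 300 CPM and the 304 other genes 92.0 CPM. The other genes are those on none of the lists.

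Counts were also split by strand, since transcripts of the Gnas locus run in both directions. Mir296, Mir298, Mir483 and Mir675 had 0 counts on the opposite strand in both libraries, and Mir335 had 3 in replicate 1 and 1 in replicate 2. The limit for a count of 0 is again 3 counts. All counts of Mir296 and Mir298 thus lay on the minus strand, which is that of Nespas. GENCODE release M21 starts Gnas 16.7 kb from Mir298, so annotated Gnas transcripts cover neither hairpin. The strand gives the direction of the source transcript, but not which minus-strand transcript the hairpins came from.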

How the data were processed

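Each file gave raw counts of reads for each miRNA gene. Per the deposited description files, the authors made these counts on the mm10 build with the M4 release of GENCODE; aligner and trimming: not given in the sources used here. The files have no header: the third column was read as same-strand counts, and its sum with the opposite-strand column equalled the unstranded column in all 1973 genes. Reads of several places stood in a class of their own (30.7% and 31.0% of reads) and were left out of totals. Names and positions came from GENCODE M21 (1894 identifiers matched), sequences from RefSeq. TMM scaling and the exact test used edgeR 4.0.16 in R 4.3.3, size factors DESeq2 1.42.0 and folding ViennaRNA 2.7.2. The exact binomial test (threshold 0.05) used SciPy 1.17.1. It was tested on simulated counts that held counting error but no spread between libraries. That check does not cover the spread of the real libraries. Medians on the log2 scale used 0.5 added reads. Genes named beside the members were the 2 nearest in level and the 3 leaders of each imprinted list. The nearest miRNA gene and the most abundant gene were also named. Mir10a, Mir219a-2 and single genes of the marker lists were named after their values were seen. The members and lists were chosen with earlier results of these data known.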

Additional observations from a re-analysis of the deposited data

How the results depend on the processing

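Across 14 results and 78 values under other settings, 61 kept their direction, their side of the threshold and their size within the error, and 0 reversed. Values from a single library are among the 61. A single library always lies within the SD of 2 libraries, so those values could not have moved and show no stability. Levels moved with the denominator. With all reads of the file as the total they were 20638 CPM for Mir335, 2105 for Mir296, 878 for Mir298, 437 for Mir483 and 39.5 for Mir675. Without the most abundant gene in the total, Mir335 stood at 50117 and Mir675 at 96.0 CPM, and the unstranded column gave 87.3 CPM for Mir675. The order of the 5 was the same in each of these settings. The library differences were 0.07, 0.23, 0.26 and 0.27 on the log2 scale (Mir335, Mir296, Mir298, Mir483). They lost their call with edgeR's exact test and a common dispersion (adjusted p = 1.00 each), where 2 genes were called against 199. This test adds to counting error a spread between libraries that was estimated from these same 2 libraries. The paternal to maternal ratio was 86.5 without Mir335. The median log2 CPM of the Dlk1-Dio3 list was 7.23, and 8.10 over tested genes only. For the Sfmbt2 list it was -3.36, the level of no count with 0.5 added reads, -0.04 with 5 added reads and 8.03 over tested genes only. Leaving out a library gives no library comparison, so that alternative was not run there. No paired analysis was possible because the samples form a single group. With 2 libraries, the SD of any level is itself poorly known.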
